A study of Drosophila melanogaster with 4 samples.

Results

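The Antennapedia complex on chromosome arm 3R of *Drosophila melanogaster* holds the homeotic genes *lab*, *pb*, *Dfd*, *Scr* and *Antp* and the pair-rule gene *ftz*. Its CBP-bound regions were taken as every listed region that overlaps the stretch from 2480 to 2560 kb or that from 2610 to 2830 kb of the arm on release 5 of the genome. The *zen* and *bcd* stretch between these 2 windows was left out. In wild-type embryos 20 of 3013 regions met the rule. In gd7 embryos 29 regions did, out of a list made of 1215 regions that overlap a wild-type region and 724 that do not. The nearest gene by start site, known for all 20 wild-type regions, was *lab*, *pb*, *Dfd*, *Scr*, *ftz* or *Antp* for 16 of them, the transcript CG42651 for 3 and *Edg84A* for 1.

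Embryos came from w1118 mothers (wild-type) or from mothers homozygous for gd7, whose embryos lack Dorsal in the nucleus and consist of dorsal ectoderm, and were aged 2 to 4 hours. About 10 immunoprecipitations with a rabbit antibody against CBP made up the single CBP library of each genotype, which was set against 1 input library of the same genotype. There were no replicates, so the values below carry no error, and no difference between the genotypes has a test. The study's methods state the mapped reads of each library as a whole, but the lists give no read counts per region, so the number of reads behind a single value is unknown. Whole embryos were used, in which fewer CBP-binding cells and less CBP per cell cannot be told apart.

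CBP, encoded by *nejire*, is a histone acetyltransferase that sequence-specific factors bring to enhancers and promoters. The homeotic genes encode homeodomain factors that give segments their identity along the anterior-posterior axis. They are lined up on the chromosome largely in the order of the body parts they act in, with *lab*, *pb* and *Dfd* acting in the head, *Scr* at the border of head and thorax and *Antp* in the thorax. Their domains are set by gap and pair-rule factors and later kept by Polycomb and trithorax group proteins. *ftz* lies between *Scr* and *Antp* but is expressed in stripes and acts in segmentation.

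Each value is the log2 enrichment of CBP over input at the summit of a region. Only the highest 5% of values, in stretches of at least 200 bp, were listed, and the lowest listed value was 1.88 in wild-type and 1.93 in gd7. A region that is missing from a list was therefore below that level or too short, and its value is not known. A wild-type region was called shared when a gd7 region overlapped it by at least 1 bp.

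The complex was denser in CBP regions than the rest of the arm in both genotypes. There were 6.67 wild-type and 9.67 gd7 regions per 100 kb, next to 2.58 and 1.65 on 3R outside the windows. Wild-type regions took up 2.93% of the windows and gd7 regions 4.49%. Among the wild-type regions 6 of 20 (30.0%) ranked among the strongest 301 of the wild-type list (9.99% of it), but only 2 of 29 gd7 regions (6.90%) ranked among the strongest 193 of the gd7 list (9.95% of it). The median value was 2.76 in wild-type and 2.39 in gd7, where those of the whole lists were 2.40 and 2.53. The strongest wild-type region of the complex had 4.68 and the strongest gd7 region 3.47, both at *Dfd*.

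**Figure D1:**
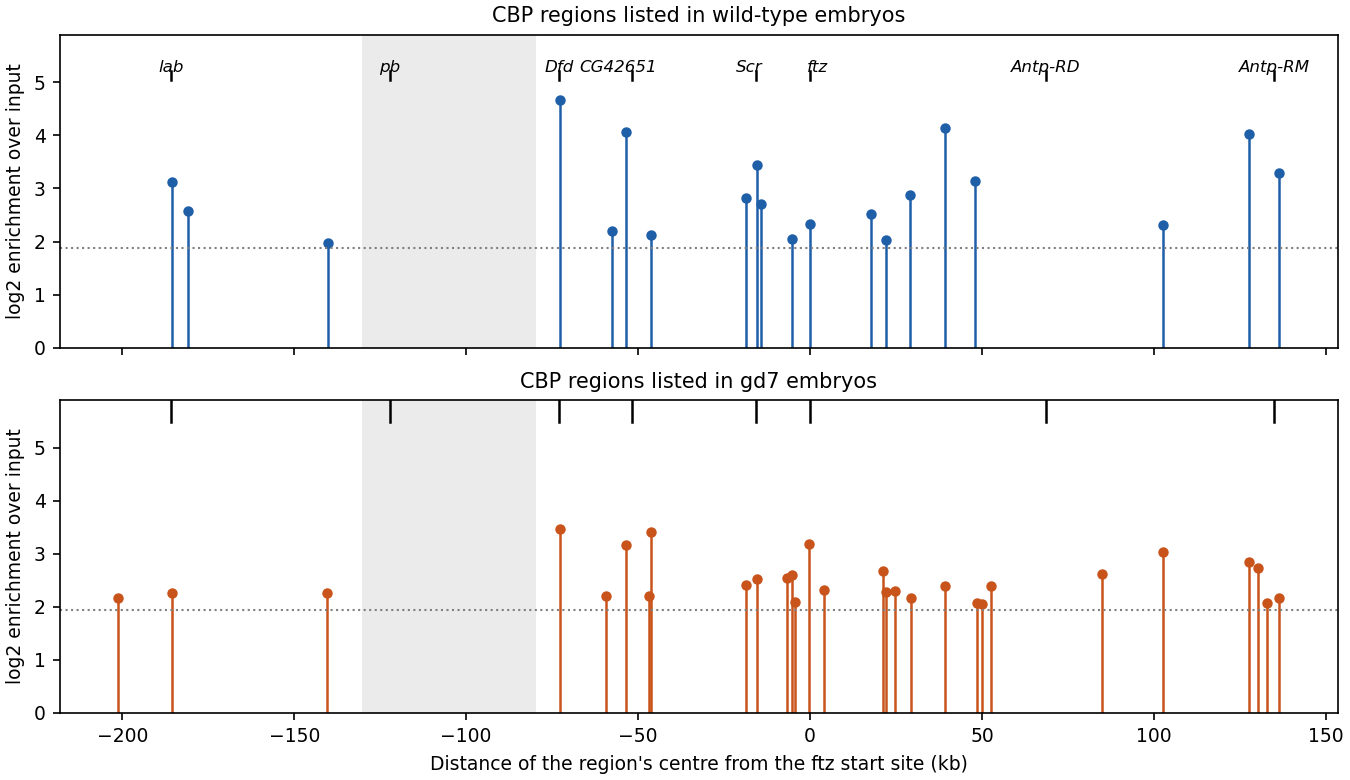
Log2 enrichment of CBP over input (vertical axis) at each listed region, by the distance in kb of its centre from the *ftz* start site (horizontal axis), in wild-type (top) and gd7 (bottom). Ticks mark start sites, the grey band is the stretch left out and dotted lines show the lowest listed value of each list (1.88 and 1.93). The tall wild-type regions near *Dfd*, CG42651 and *Antp* are lower in gd7, where more regions of low value are listed.

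At the start sites of *lab*, *Dfd* and *Scr*, CBP was higher in wild-type, and at that of *ftz* it was higher in gd7. Of the 20 wild-type regions, 5 (25.0%) were centred no more than 500 bp from a start site, next to 54.4% of all wild-type regions with a known distance. *Dfd*, *Scr* (2 regions), *lab* and *ftz* had such a region, and *Antp* had none. A start-site region of *pb* lay just outside the first window and is given below.

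*Dfd* specifies the mandibular and maxillary segments. Its start-site region, from 2617160 to 2617545 with the centre 258 bp from the site of Dfd-RA, reached 4.68 in wild-type, which ranked 6 in the whole list. In gd7 it ran from 2617230 to 2617545 with 3.47 and ranked 159. The difference of gd7 minus wild-type was -1.21 on the log2 scale, or 2.31-fold lower. The summits lay 35 bp apart, the step at which the authors sampled the signal, so both lists place CBP at the same point.

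*Scr*, which acts in the labial and first thoracic segments, had 3 wild-type regions. The first, from 2674280 to 2674805 and 298 bp from the site of Scr-RA, had 3.43 in wild-type and 2.53 in gd7, with the same centre and a difference of -0.90. The second, from 2675645 to 2675890 and 82 bp from the site of Scr-RB, was listed with 2.70 in wild-type alone. The third, from 2671375 to 2671830 and 2677 bp from the site of Scr-RA, was less different, with 2.82 and 2.42. All 3 *Scr* regions were thus lower or unlisted in gd7, and the gd7 list held no further region beside them.

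*lab*, the gene of the most anterior domain in this group, had 1 wild-type region. It lay from 2504250 to 2504530 at a distance of 113 bp, and its value was 3.12 in wild-type against 2.26 in gd7. The centre was the same in both lists and the difference was -0.86. A gd7 region with no wild-type region lay from 2488710 to 2488955, 15480 or 15706 bp from the *lab* start site, since 2 positions of that site are possible from the distances used. Its value was 2.16. The neighbouring wild-type region, from 2508940 to 2509220 and nearest to the cuticle gene *Edg84A* at 1127 bp, had 2.57 and no gd7 region.

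*pb* acts in the mouthparts. Within the windows it was the nearest gene of 1 wild-type region, 18035 bp from its start site, with the low value of 1.97. The gd7 region beside it, from 2549365 to 2549645, had 2.26 and met the wild-type region, which starts at 2549645, at a single position. Its summit lay 315 bp away. These may therefore be counted as shared or as separate, and they were counted as shared here.

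The windows were set by position, and the regions on either side of their edges are given as a description. Just outside the first window, the *pb* start-site region from 2567285 to 2567600, 395 bp from the site, had 3.47 in wild-type and no gd7 region. A gd7 region from 2569770 to 2570645, with 2.66, had no wild-type region. On the *lab* side of the window lay a wild-type region at *Taf1* with 2.75 and no gd7 region. Before the second window lay a region at *Ama* with 2.54 in wild-type and 3.21 in gd7, and after it a region nearest to *Sodh-1* with 3.90 and 3.40.

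*ftz* divides the embryo into alternate parasegments. Its start-site region was of modest height in wild-type and was wider and higher in gd7. In wild-type it ran from 2689540 to 2690030, at 156 bp from the *ftz* site, and had 2.33 and a rank of 1691. In gd7 it ran from 2689435 to 2690240 with 3.18 and a rank of 306. The difference was 0.85, or 1.80-fold higher, and the summits lay 210 bp apart. The value of *ftz* in gd7 was above those of *Scr* and *lab*, whereas in wild-type it was below both.

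The interval between *Scr* and *ftz*, known to hold enhancers of *ftz* and an insulator, had 1 wild-type region and 3 gd7 regions. The wild-type region, from 2684570 to 2684850 and 5319 bp from the *ftz* start site, had 2.04, and the gd7 region over it, from 2684465 to 2685410, had 2.60. On either side of it were gd7 regions with no wild-type region, with 2.54 at 6736 bp from the *ftz* site and 2.09 at 4251 bp. On the *Antp* side of *ftz*, another region listed in gd7 alone had 2.32 at 4149 bp. The 2 wild-type regions of *ftz* and this interval had a summed length of 770 bp, and the 5 gd7 regions, with that on the *Antp* side, had 2975 bp.

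**Figure D2:**
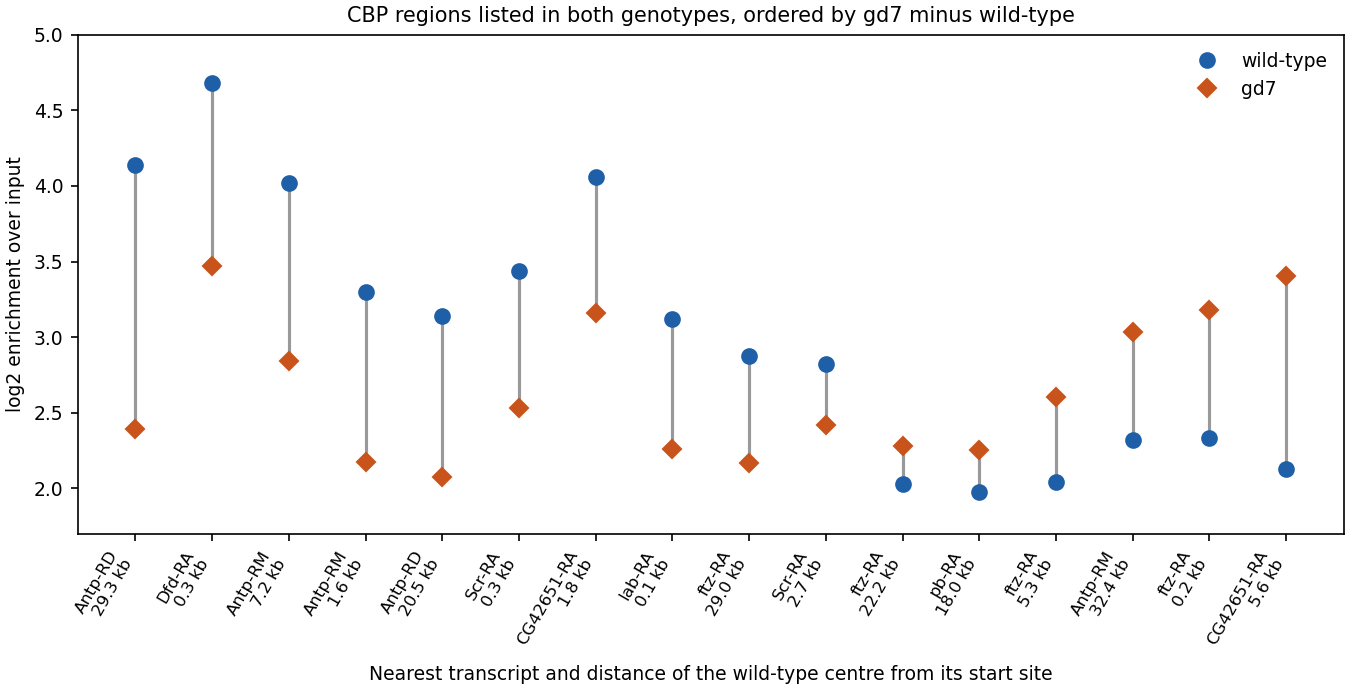
Log2 enrichment over input (vertical axis) of the 16 regions listed in both genotypes, with wild-type as circles and gd7 as diamonds, ordered from the lowest to the highest difference. Labels give the nearest transcript and the distance of the wild-type centre from its start site in kb. The 10 regions on the left were lower in gd7, among them *Dfd*, *Scr* and *lab*, and the 6 on the right, with *ftz*, were higher.

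The release 6 table of names lists CG42651, a transcript between *Dfd* and *Scr*, as a long noncoding RNA (lncRNA:CR42651). CBP regions lay on both sides of its start site, but none was centred within 500 bp of it. The region from 2636375 to 2636725, 1796 bp from that site, was the third highest of the complex in wild-type, with 4.06 and a rank of 36. In gd7 it had 3.16, a difference of -0.90, with the same length of 350 bp. It was still the fourth highest value of the complex in gd7.

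The region on the other side of the CG42651 start site went the opposite way and was the only one of the complex that was more than 2-fold higher in gd7. In wild-type it ran from 2643620 to 2644215, at 5554 bp from that site, and had 2.13. In gd7 it was much wider, from 2643550 to 2645090, with 3.40. The difference was 1.28, or 2.43-fold higher, and the length went from 595 to 1540 bp. Next to it, a gd7 region from 2643025 to 2643235 with 2.21 had no wild-type region. Nearer to *Dfd*, the lists held different weak regions, with 2.20 in gd7 alone at 13042 or 13558 bp from the *Dfd* start site and 2.19 in wild-type alone at 5751 bp from the CG42651 site.

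*Antp*, the homeotic gene of the thoracic segments, is transcribed from a pair of start sites, here Antp-RD nearer to *ftz* and Antp-RM farther from it. No wild-type region lay within 500 bp of either. Around the Antp-RD site no wild-type region was listed over 54.5 kb between centres. The nearest wild-type region was 20512 bp away and the nearest gd7 region 15997 bp.

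The largest difference of the complex was seen 29262 bp from the Antp-RD site on its *ftz* side. The region there, from 2729195 to 2729510, had 4.14 in wild-type, with a rank of 25. In gd7 it had 2.39, with a rank of 1210 and the summit 35 bp away. The difference was -1.75, or 3.36-fold lower, the second lowest of all 1217 shared regions. The next region, from 2737945 to 2739100, had 3.14, and overlapped a gd7 region of 2.07 whose length was 280 bp instead of 1155 bp. Its difference was -1.06, with summits 665 bp apart, so the 2 values were taken at separate points.

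Near the Antp-RM site the wild-type regions were also lower in gd7. That from 2826285 to 2826915, 1580 bp from the site, had 3.30 against 2.17 in gd7, a difference of -1.13. The region from 2817360 to 2818130, 7170 bp away, had 4.02 and 2.84, a difference of -1.18. Between these regions, the gd7 list held a pair of regions with no wild-type region, 4790 and 2165 bp from the Antp-RM site. They had 2.73, the highest value of any region of the complex in gd7 alone, and 2.06.

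The wild-type region of *Antp* with the longest distance to its nearest start site was higher in gd7. In wild-type it ran from 2792405 to 2792650, at 32405 bp from the Antp-RM site, and had 2.32. The gd7 value was 3.04 at the same centre. The difference was 0.72. A region in gd7 alone, from 2774660 to 2775360, lay between it and the Antp-RD site with 2.63. *Antp* thus had regions of both directions, with those above 3 in wild-type lower in gd7 and the weak one higher.

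Apart from the 2 regions of 4.14 and 3.14 described above, the stretch between *ftz* and the Antp-RD site held regions below 3 in wild-type. That of 2.88 in wild-type, 28999 bp from the *ftz* site, had 2.17 in gd7, and that of 2.03 at 22174 bp had 2.28. The region at 17694 bp, with 2.52, had no gd7 region. In gd7 alone, regions of 2.68 and 2.30 were listed at 21089 and 24729 bp from *ftz*, and regions of 2.06 and 2.39 at 18482 and 15997 bp from Antp-RD. The lists thus differed in which weak regions they held here, and none of the 8 gd7 regions between *ftz* and Antp-RD reached 3.

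**Figure D3:**
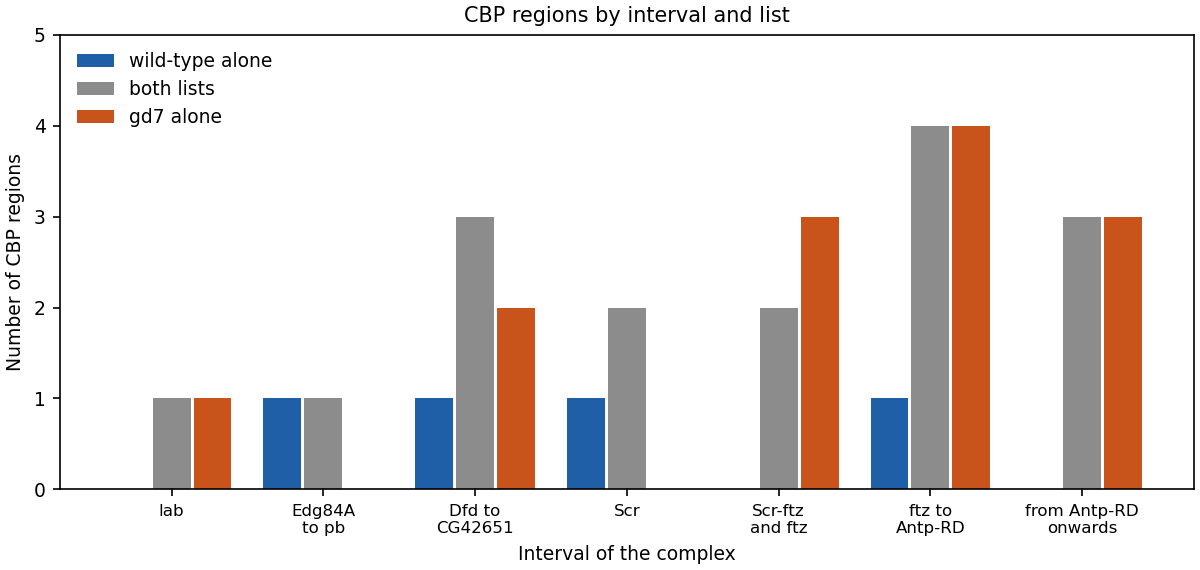
Number of CBP regions (vertical axis) in 7 consecutive intervals of the complex (horizontal axis), listed in wild-type alone, in both genotypes or in gd7 alone. Regions in gd7 alone were 3 of 5, 4 of 8 and 3 of 6 gd7 regions in the last 3 intervals. They were 1 of 2 in the *lab* interval and 2 of 5 from *Dfd* to CG42651. Over the complex the share was 44.8%, next to 37.3% of all gd7 regions. The *Scr* interval and that from *Edg84A* to *pb* had none. The intervals differ in length, so the counts are not densities.

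In all, 16 of the 20 wild-type regions (80.0%) had a gd7 region, next to 40.4% of all wild-type regions. This share depended on the cut-off. Among regions of at least 2.5 in both lists, 4 of 13 wild-type regions of the complex (30.8%) had a gd7 region, next to 37.9% of all such wild-type regions. Of the 12 gd7 regions at that level, 8 (66.7%) had no wild-type region of at least 2.5, next to 52.1% of all such gd7 regions. Some of these 8 did overlap a weaker wild-type region, as at *ftz*, with 2.33 in wild-type and 3.18 in gd7. At the listed cut-off, the 4 without a gd7 region had values from 2.19 to 2.70. From the gd7 side, at the listed cut-off, 13 of 29 regions (44.8%) had no wild-type region, next to 37.3% of all gd7 regions, so the share of gd7 regions listed in gd7 alone was near that of the whole list. Their values ran from 2.06 to 2.73, with a median of 2.30, and none was over 2-fold higher than the lowest value of the wild-type list.

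Of the 16 shared regions, 10 were lower in gd7 (62.5%, next to 46.8% of all shared regions) and 6 were higher. More than 2-fold lower were 5, those at *Dfd* and the 4 *Antp* regions above 3, next to 5.92% of all shared regions. Shared regions below 3 in wild-type held none, in the complex or elsewhere, and gd7 values under 1.93 are not listed. Among shared regions of at least 3 in wild-type, the 5 were 62.5% of 8, next to 19.1% of 350 in the rest of the series. The 350 were not matched to the 8 in strength, and the 8 included regions ranked 6, 25, 36 and 41 in wild-type. Whether the higher share goes with their strength alone was not tested. More than 2-fold higher was 1, the region near CG42651, next to 10.2%. Of the 4 shared start-site regions, 3 were lower, next to 56.6% of the 364 shared start-site regions with a known distance. That of *Dfd* alone was more than 2-fold lower, next to 5.49% of the 364. The median difference over the 16 was -0.78, and the single differences ran from -1.75 to 1.28. The 16 regions come from the same pair of libraries and are not replicates, so no interval is given for the median. Over all shared regions the median was 0.06. No difference lay between -0.40 and 0.25, but this gap was picked with the values in view, and a split into groups was not tested.

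The direction went with the wild-type value, which is partly built into the measure. Each difference subtracts the wild-type value, and gd7 values under 1.93 are not listed. All 8 shared regions of the complex with at least 3 in wild-type were lower in gd7, with differences from -1.75 to -0.86 and a median of -1.10. In the rest of the series, 79.7% of 350 such regions were lower, with a median of -0.56, but these were not matched in strength to the 8. The 8 shared regions below 3 had a median of 0.42, and 2 of them were lower, where 33.0% of 851 were in the rest of the series. The limit of 3 was chosen with the values in view. Grouping by the gd7 value instead gave the opposite order over the whole list. Of 5 gd7 regions of the complex with at least 3, all shared, 3 were above wild-type (*ftz*, CG42651 and *Antp*) and 2 below. Of all gd7 regions with at least 3 and a wild-type region, 76.9% were above wild-type.

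**Figure D4:**
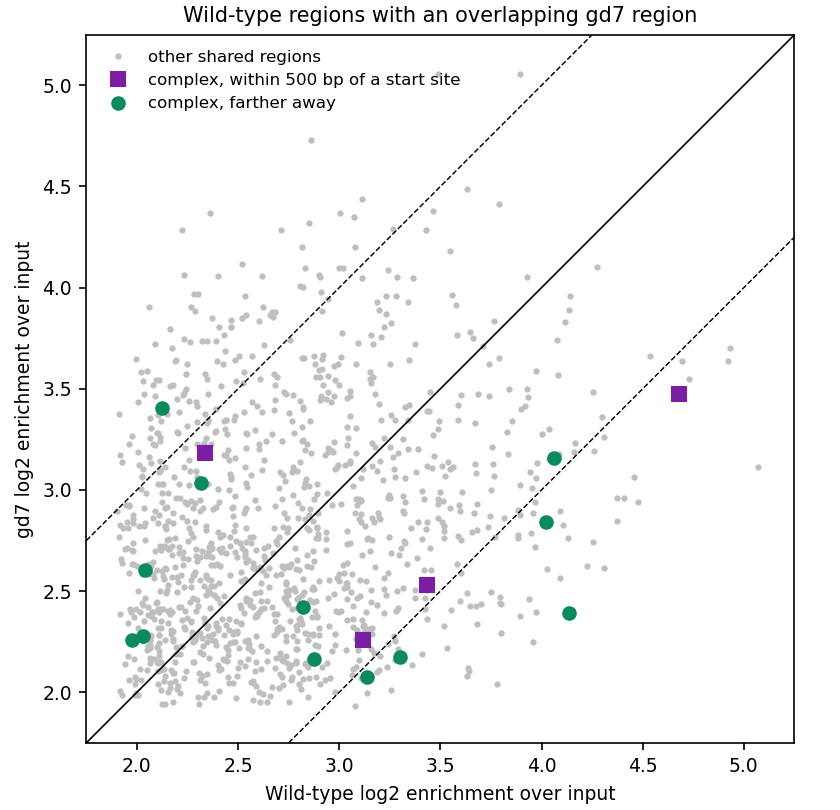
Wild-type (horizontal axis) and gd7 (vertical axis) log2 enrichment over input of all 1217 shared regions, with the complex marked by distance to a start site. The solid line marks equal values and dashed lines 2-fold differences. The 5 regions of the complex below the lower dashed line are those of *Dfd* and *Antp*, and the 1 above the upper line is that near CG42651.

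Extent changed together with height. Each of the 6 shared regions with a higher gd7 value was wider in gd7, and of the 10 lower ones 9 were narrower and 1 was equal. Over all shared regions these shares were 74.0% and 75.6%. A taller summit leaves more of its flanks above a fixed cut-off, so extent and height are not separate measurements. The summits of 10 of the 16 (62.5%) lay within 35 bp of each other in both lists, next to 35.7% of all shared regions. Among the 10 lower regions this held for 8, *Dfd*, *Scr* and *lab* included, next to 43.9% of all lower shared regions.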

How the data were processed

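ChIP-seq reads had been mapped by the authors to release 5 of the genome. The deposited values are log2 ratios of ChIP over input, taken every 35 bp, median smoothed over 350 bp and averaged over the 5 highest consecutive values of a region, minus a constant of each list. The constant, 1.88 in wild-type and 1.93 in gd7, was found from the study's supplementary region table, held here for 1999 wild-type and 170 gd7 rows, and was added back. Nearest transcripts and distances came from the same table, which holds no gd7 row on 3R. Start sites were fixed where several distances met at 1 position. Positions are as deposited and may count from 0. The 2 genotypes were not normalized to each other.

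Overlaps were counted with numpy 2.4.6 in Python 3.11.15, checked with bedtools 2.31.1 and tested on simulated regions. Plots used matplotlib 3.10.9. Differences took the highest overlapping gd7 value, with limits of 2-fold. Alternatives changed the overlap rule, cut-off, windows, scaling, limit and start-site distance. The named genes were the 6 genes, the other nearest genes, those at the window edges, 2 gene lists and the 3 regions most like that of *Dfd*. Members and lists were chosen with earlier results of these data known.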

Additional observations from a re-analysis of the deposited data

How the results depend on the processing

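The 16 single differences were recomputed with values centred on the median of all shared regions, with deposited values without the constants and with the nearest gd7 centre. They kept their sign and their side of the 2-fold limit in all 48 cases, but this outcome was largely fixed in advance. Each of the 16 overlapped 1 gd7 region, so the nearest centre could only return the same value. The other settings moved every difference by the same small amount. The count of regions depends most on the cut-off: at values of at least 2.5, 13 wild-type and 12 gd7 regions remained. Of these, 4 wild-type regions were shared at that level and 8 gd7 regions had no wild-type region of at least 2.5. With a limit of 1.5-fold, 9 shared regions were lower and 3 higher. With the whole stretch, including *zen* and *bcd*, 2 regions were more than 2-fold higher and the median difference was -0.40. Within 250 bp of a start site lay 3 regions in place of 5. When a single shared position was not enough, a rule added after the data were seen, 15 wild-type regions were shared and 14 gd7 regions stood alone. No paired analysis was possible because each genotype has 1 library. The lists hold nothing under the cut-off, which leaves absent and weakened regions indistinguishable.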

Other observations

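Genes that work with the homeotic genes, or that set their domains, were read from the same lists. The first list held 19 partners and chromatin regulators, of which 12 were the nearest gene of 47 wild-type regions. Of these, 27 (57.4%) had a gd7 region, next to 40.4% of all wild-type regions, and their median difference was 0.18 on the log2 scale, next to 0.06 over all shared regions. More than 2-fold lower in gd7 were 3 of the 27, next to 5.92% of all shared regions, 2 were more than 2-fold higher, next to 10.2%, and 22 lay between. The lowest differences were at *tsh*, which acts with homeotic proteins in the trunk, with 3.64 in wild-type and 2.12 in gd7 at 110 bp from a start site, and at *hth*, the gene of a cofactor that brings Extradenticle into the nucleus, with 3.79 and 2.47 at 237 bp. The highest difference was at *psq*, which encodes a GAGA-binding protein, with 2.19 and 3.64 at 1519 bp. The same gd7 region also covered the *psq* region at 364 bp, with 2.48 in wild-type, so both regions called more than 2-fold higher rest on 1 gd7 region. A gd7 region of *hth* with 3.34 likewise covered 2 wild-type regions, and was above that of 2.35 at 3667 bp but below that of 3.49 at 2862 bp. Farther from the *hth* start site, regions matched 1 to 1 had 2.23 and 3.12 at 5567 bp and 2.68 and 3.52 at 11751 bp.

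The second list held 13 segmentation regulators, of which 9 were nearest to 17 wild-type regions. Of these, 14 (82.4%) had a gd7 region, next to 40.4% of all wild-type regions. More than 2-fold lower were 2 of the 14 and more than 2-fold higher was 1, next to 5.92% and 10.2% of all shared regions, and the median difference was 0.14, next to 0.06. The lowest were start-site regions of *opa*, with 3.94 in wild-type and 2.46 in gd7, and of *cad*, with 4.46 and 3.06. The highest were a distal region of *opa*, with 2.21 and 3.38, and a region of *h* 4679 bp from its start site, with 2.15 and 2.91. Distances cover no region on X and 298 of 732 on 3R, so genes there are counted in part.

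The start-site regions whose pair of values was nearest to that of *Dfd*, among 360 shared regions within 500 bp of a start site outside the complex, were those of *fz*, a Wnt receptor gene, with 4.30 in wild-type and 3.36 in gd7, of *cad*, a posterior patterning gene, with 4.46 and 3.06, and of *croc*, a forkhead gene of the head, with 4.26 and 3.19. Their Euclidean distances from *Dfd* over the 2 lists were 0.40, 0.47 and 0.51. Only regions with a known distance to a start site could be compared. Likeness in 2 values says nothing of shared function or control.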
